A study of Mus musculus with 15 samples.

Results

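The 3 hairpin lines made from 6DT1, mouse mammary tumour cells, differed from the 2 vector lines in the messenger RNA of sterol synthesis, of the unfolded protein response, of p53 target genes and of the mitochondrial genome. The hairpin lines were shScr, which carries a scrambled hairpin, and KD4 and KD6, which each carry a hairpin against Smarcd1, which encodes a member of the BAF complex that remodels chromatin. The vector lines were EV, which carries an empty vector, and OE, which carries a Myc-tagged Smarcd1. All 15 libraries of the series entered, 9 from hairpin lines and 6 from vector lines, with 3 libraries a line from separate passages of cells grown as a monolayer. By the study's methods the lentiviral hairpin constructs and the overexpression construct were packaged with the same viral plasmids and transduced in the same way. The hairpin lines were kept in puromycin, while the vector lines were kept in blasticidin. Each line stems from a transduction and selection of its own, so the 3 libraries of a line share it, and p-values over libraries measure the spread between libraries of these 5 lines. Hairpin or vector, the selection drug and the sample numbering all divide the lines in the same way and cannot be told apart. Smarcd1 itself also differed between the classes, shScr included.

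A short hairpin is transcribed from a small-RNA promoter, exported from the nucleus like a microRNA precursor, trimmed by Dicer and loaded into an Argonaute protein. Puromycin resembles the end of a loaded transfer RNA and releases unfinished chains from the ribosome, whereas blasticidin slows peptide bond formation and release. Each line carries an enzyme that inactivates its drug. Sterol synthesis is driven by the transcription factor SREBP2 when membrane cholesterol is low, the unfolded protein response raises chaperones of the endoplasmic reticulum, and p53 raises genes of cell cycle arrest and cell death.

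Levels were CPM (read counts scaled to the library total) as calculated by the authors, summed over the transcripts of each gene, for 13142 genes. Differences were tested with limma on log2(CPM + 1), a scale that understates the change of genes with low levels. A gene was called at an adjusted p under 0.05 when the means of all 3 hairpin lines also lay on the same side of the means of both vector lines. By this rule 873 genes (6.64%) were higher and 1120 genes (8.52%) lower in the hairpin lines, 1993 (15.2%) in all, of which 238 differed by over 1.5-fold (91 higher and 147 lower). The count depended on the vector lines: it was 1325 without EV replicate 1, 1230 without EV replicate 3, 322 without the EV line and 890 without the OE line. With the line as a random block in the fit it was 754. All 9 hairpin libraries lay above or below all 6 vector libraries in 564 genes (4.29%). When the 5 lines, each as the mean of its libraries, were the units of the fit, 104 genes (0.791%) were called, 45 higher and 59 lower, and 102 of them were also called over libraries.

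Depth was unknown, since the values were normalized and no whole reads could be recovered. The CPM of listed genes summed to 864732 to 902115 in the vector libraries and 854736 to 879045 in the hairpin libraries. On the axis of largest variation, which held 29% of the variance of log2 levels, vector libraries lay between -28.4, the score of EV replicate 1, and -7.4, and hairpin libraries between 0.5 and 21. For the median gene 13.8% of the variance lay between the classes, 25% between lines of a class and 51.1% between libraries of a line. These shares rest on 1, 3 and 10 degrees of freedom, so their sizes cannot be compared directly. The cells were checked against 13 markers of luminal mammary cells, of which 7 were listed and none called. Krt8, a keratin of simple epithelia, was at 355 CPM in vector lines and 412 CPM in hairpin lines, whereas the epithelial marker Epcam was not among the genes listed here. Of 16 immune cell markers only Cd68 and Cd14 were listed, of 10 fibroblast markers only Pdgfra, and of 9 endothelial markers only Kdr, at 1.15 CPM in vector lines.

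Smarcd1 (ENSMUSG00000023018) was the check on the labels. Its level was 32.4, 27.0 and 28.8 CPM in EV and 38.3, 37.4 and 36.4 CPM in OE. It was 14.1, 17.0 and 14.7 CPM in shScr, 8.32, 7.21 and 8.76 CPM in KD4, and 12.2, 14.3 and 13.1 CPM in KD6. Every hairpin library lay below every vector library, those of shScr among them, and the log2 difference between the classes was -1.42 ± 0.16 (SE, adjusted p = 2.42e-05, limma). The table holds 1 Smarcd1 transcript. In the authors' gene tables, which were normalized separately for the vector and the hairpin lines, the means were 29.6 CPM in EV, 65.7 CPM in OE, 15.3 CPM in shScr, 9.13 CPM in KD4 and 14.4 CPM in KD6.

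**Figure D1:**
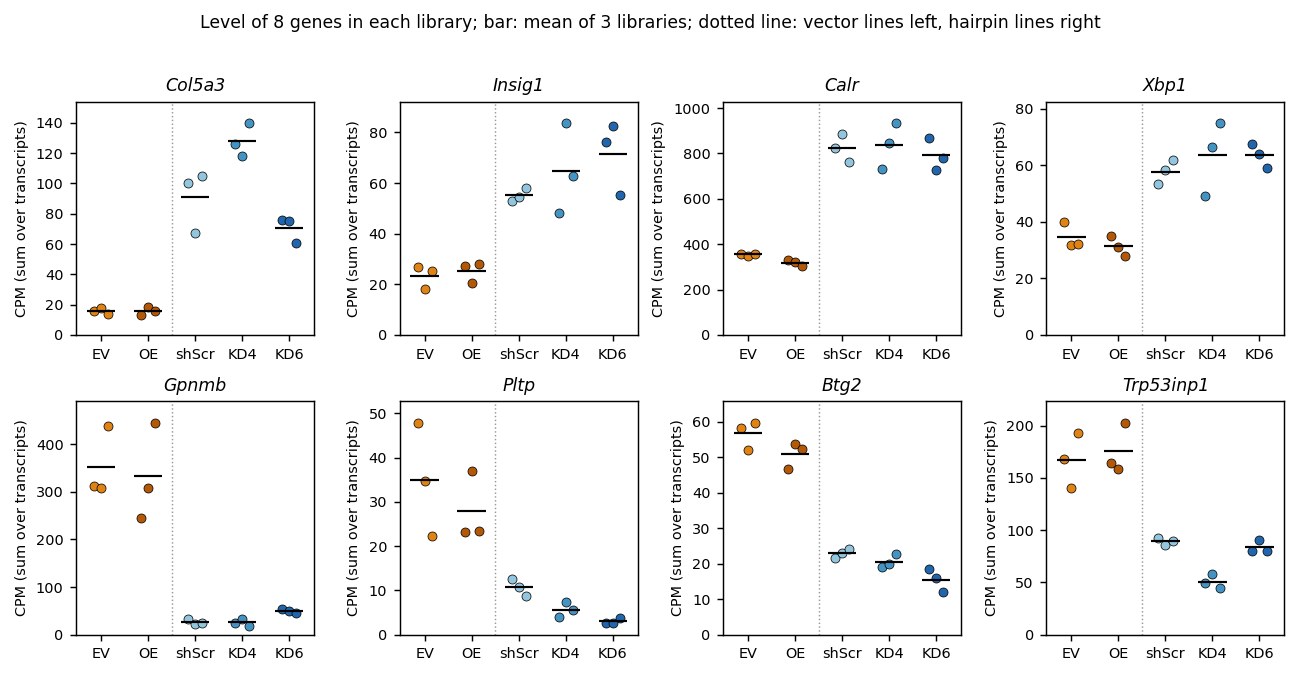
Levels in CPM (vertical axes, linear, from 0) of 8 genes in each of the 15 libraries; points are libraries, bars are means of the 3 libraries of a line, and the dotted line divides vector lines (EV, OE) from hairpin lines (shScr, KD4, KD6). Col5a3, Insig1, Calr and Xbp1 were higher in all 9 hairpin libraries than in all 6 vector libraries, and Gpnmb, Pltp, Btg2 and Trp53inp1 were lower. All 8 were named among genes without overlap.

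The largest increase among genes named by rule was that of Col5a3, a chain of type V collagen. It was between 13.2 and 18.7 CPM (median 15.9) in the 6 vector libraries and between 61.0 and 140 CPM (median 100) in the 9 hairpin libraries. The lines did not agree on its size, with 90.8 CPM in shScr, 128 CPM in KD4 and 70.6 CPM in KD6 against 15.9 CPM in both vector lines. The log2 difference was 2.48 ± 0.16 (SE, adjusted p = 9.82e-08, limma over libraries, and 0.013 over line means).

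Lamb3, a laminin chain of epithelial basement membranes, was also higher, with line means of 31.1 and 30.6 CPM for EV and OE against 80.6, 59.7 and 49.5 CPM in shScr, KD4 and KD6. Of 38 listed genes of extracellular matrix and proteases, 7 were higher (18.4%, against 6.64% of all genes) and 2 lower (5.3%, against 8.52%). The median log2 difference of -0.01 equalled the median of all genes. Without EV replicate 3 the counts were 3 higher (7.9%, against 4.15% of all genes) and 1 lower (2.6%, against 5.21%). The higher ones included Col6a1 and Col6a3, chains of type VI collagen, with log2 differences of 0.72 ± 0.23 and 0.45 ± 0.08. Col6a1 was close to the lowest levels listed, at 0.387 to 1.2 CPM in vector libraries and 0.836 to 4.15 CPM in hairpin libraries, which overlapped, and its call was lost in 18 of 28 alternative fits.

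Mfhas1 and Mturn were higher in hairpin lines mostly through KD4. Mfhas1 was at 5.87 and 5.98 CPM in EV and OE, 12.4 CPM in shScr, 14.6 CPM in KD6 and 31.0 CPM in KD4. Mturn was at 4.14 and 3.98 CPM in the vector lines, 6.22 CPM in shScr, 6.95 CPM in KD6 and 12.9 CPM in KD4. Neither was called over line means, with adjusted p of 0.124 and 0.175. Golga7b, Clcn6 and Fads2 completed the 15 genes with the largest increases, together with the sterol and chaperone genes described next and the genes above. Golga7b stood at 3.36 CPM in vector lines and 8.03 CPM in hairpin lines, and Clcn6, a chloride transporter of endosomes, at 8.73 and 16.1 CPM.

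Genes of cholesterol synthesis and uptake were higher in the hairpin lines. Of 23 listed members 18 were higher and none lower, against 6.64% of all genes higher, and the median log2 difference of the list was 0.54 against -0.01 for all genes. In 10 members every hairpin library lay above every vector library, against 231 of all 13142 genes. As higher over line means 9 were called, against 45 of all genes. Relative to the mean of the vector lines, the median member lay 0.44 higher on the log2 scale in shScr, 0.6 in KD4 and 0.49 in KD6. Without EV replicate 1 the count was 18, and without EV replicate 3 it was 17.

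The regulators of the pathway were among them. Srebf2, which encodes SREBP2, was between 91.8 and 127 CPM (median 114) in vector libraries and between 135 and 201 CPM (median 151) in hairpin libraries, a log2 difference of 0.54 ± 0.10 (SE, adjusted p = 0.0022). Insig1, which holds the SREBP proteins in the endoplasmic reticulum and is itself a target of them, had the largest difference of the list, 1.35 ± 0.13 (SE, adjusted p = 5.58e-06). It was at 26.7, 18.3 and 25.1 CPM in EV, 27.1, 20.4 and 27.9 CPM in OE, 53.1, 54.4 and 58.2 CPM in shScr, 48.1, 83.8 and 62.7 CPM in KD4, and 76.4, 82.5 and 55.1 CPM in KD6. The lowest hairpin library of Insig1 thus stood above the highest vector library, as the rule that named it required.

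The enzymes that were called differed by unequal amounts. Differences were found for Idi1, the isomerase of the isoprene units (0.88 ± 0.12), Fdps, which makes farnesyl diphosphate (1.19 ± 0.16), Lss, which closes the sterol rings (0.80 ± 0.10), and Cyp51, which removes a methyl group from lanosterol (1.29 ± 0.12). Cyp51 was between 28.4 and 43.5 CPM (median 37.8) in vector libraries and between 69.3 and 126 CPM (median 85.8) in hairpin libraries.

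Stard4, a carrier of cholesterol between membranes, rose by 0.79 ± 0.12. The 5 members that were not called were Tm7sf2 (-0.34), Ebp (-0.13), Dhcr7 (0.11), Hsd17b7 (0.12) and Nsdhl (0.17), which act late in the path. Genes of fatty acid synthesis and oxidation did not follow as a list, with 4 of 34 higher, 2 lower and a median of -0.01. The shares were 11.8% higher and 5.9% lower, against 6.64% and 8.52% of all genes. The 4 higher ones were the desaturases Fads2 (1.05), Fads1 (0.57) and Scd2 (0.57) and the acyl-CoA synthetase Acsl3 (0.56). Fads1 (adjusted p = 0.0499) was not called in 19 of 29 alternative fits.

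Genes of the unfolded protein response, above all chaperones of the endoplasmic reticulum, were higher in the hairpin lines. Of 19 listed members 12 were higher, against 6.64% of all genes, and 1 was lower, with a median log2 difference of 0.47, and 11 of those higher had libraries without overlap. Of all 13142 genes, 231 had every hairpin library above every vector library. Over line means 8 members were called higher, against 45 of all genes. The 3 hairpin lines lay close together, with the median member 0.42, 0.45 and 0.43 above the vector lines in shScr, KD4 and KD6. The count was 11 without EV replicate 1 and 11 without EV replicate 3.

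Calr, a chaperone for glycoproteins that binds calcium, had the smallest p of all genes. The EV libraries held 359, 347 and 358 CPM, and the OE libraries 329, 320 and 306 CPM. It was at 826, 885 and 764 CPM in shScr, 732, 847 and 935 CPM in KD4, and 866, 729 and 780 CPM in KD6. The log2 difference was 1.28 ± 0.06 (SE, adjusted p = 9.01e-10 over libraries and 0.00475 over line means). All 4 listed transcripts of Calr were called higher, with log2 differences of 1.23, 1.58, 1.51 and 0.83.

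Hspa5, the main Hsp70 chaperone of the endoplasmic reticulum (BiP), was between 442 and 586 CPM (median 503) in vector libraries and between 778 and 982 CPM (median 884) in hairpin libraries. Its Hsp90 partner Hsp90b1 was between 548 and 575 CPM (median 559) and between 836 and 1150 CPM (median 964). The disulfide isomerase Pdia6 was between 139 and 174 CPM (median 146) and between 248 and 314 CPM (median 256), and its 4 listed transcripts were each called higher. The classes did not overlap for Hspa5 and Hsp90b1, nor for Pdia6, where the naming rule required it. The log2 differences of the 3 genes were 0.80, 0.79 and 0.84, each with an SE of 0.06.

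Xbp1, a transcription factor of this response whose RNA is spliced by the sensor Ern1, rose by 0.88 ± 0.09 on the log2 scale, from 33.0 ± 4.15 CPM (SD, n = 6) to 61.7 ± 7.83 CPM (SD, n = 9). The sensors themselves were not called higher. Atf6 was the member called lower, at 292 to 306 CPM in vector libraries and 243 to 291 CPM in hairpin libraries (log2 difference -0.17 ± 0.04, adjusted p = 0.0123). Ern1 had a log2 difference of -0.20 ± 0.08 that did not pass (adjusted p = 0.106). Members of the degradation branch, Edem1 (0.00), Sel1l (0.08) and Syvn1 (0.08), were not called either, whereas Herpud1 of the same branch was higher (0.47).

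The endoplasmic reticulum stress element, CCAAT followed by 9 bases and CCACG, is the motif through which chaperone genes of this response are known to be switched on. RefSeq promoter windows of 250 bases before to 50 bases after the start site (GRCm38.p6) were found for 16 of the 19 listed genes, and the motif was searched on both strands. It was present in 7 of the 16 (43.8%), in 0.163% of the 8571 tested genes with a window and in 0.119% of all 32851 windows. Of the 7 genes 5 were called higher, and Dnajc3 and Syvn1 (log2 differences 0.00 and 0.08) were not. The windows of Pdia4, Dnajb11, Sdf2l1, Herpud1 and Xbp1, which were also called higher, did not hold it. The sites of the 7 genes are shown, each read from CCAAT to CCACG with 10 bases on either side and the motif letters in capitals.
Calr, chr8:84847065-84847103, plus strand: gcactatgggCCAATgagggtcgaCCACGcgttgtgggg
Hspa5, chr2:34772015-34772053, plus strand: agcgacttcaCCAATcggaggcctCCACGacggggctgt
Hsp90b1, chr10:86705628-86705666, minus strand: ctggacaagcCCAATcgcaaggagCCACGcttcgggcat
Hsp90b1, chr10:86705523-86705561, plus strand: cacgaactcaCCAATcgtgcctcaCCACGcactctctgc
Pdia6, chr12:17266481-17266519, plus strand: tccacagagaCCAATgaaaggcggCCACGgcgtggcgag
Creld2, chr15:88819510-88819548, minus strand: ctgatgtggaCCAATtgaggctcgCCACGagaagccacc
Dnajc3, chr14:118937817-118937855, plus strand: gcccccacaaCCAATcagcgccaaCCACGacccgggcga
Syvn1, chr19:6046522-6046560, plus strand: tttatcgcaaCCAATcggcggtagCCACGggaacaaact

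The site of Creld2 lies in a window shared with its neighbour Alg12 on the other strand, and the genes did not move together, with log2 differences of 0.51 (called) for Creld2 and -0.23 (not called) for Alg12. Outside the list 7 further tested genes held the motif, of which Canx, a chaperone that works beside Calr, was called higher (0.18 ± 0.04) and 6 were not called. The motif was thus found in windows of genes that differed and of genes that did not. The sterol regulatory element, searched as TCACNCCAC on both strands, was found in 0 of the 16 cholesterol genes with a window and in 1.27% of the tested genes. The list has 23 members, and Fdps was among those without a window. Other forms of the element and sites outside the windows were not searched.

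Targets of p53 were lower in the hairpin lines. Of 25 listed genes 18 were lower and none higher, against 8.52% of all genes lower, and the median log2 difference was -0.45. In 11 every hairpin library lay below every vector library, against 333 of all 13142 genes. As lower over line means 7 were called, against 59 of all genes. Relative to the vector lines the median member was at -0.33 on the log2 scale in shScr, -0.38 in KD4 and -0.46 in KD6. The count was 15 without EV replicate 1, 14 without EV replicate 3 and 9 without the EV line. Those 9 were 36.0% of the list, in a fit where 1.35% of all genes were lower. The level of Trp53, which encodes p53, was not called, with a log2 difference of -0.07 ± 0.07 (adjusted p = 0.513).

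Btg2, an antiproliferative target, stood at 58.3, 51.9 and 59.7 CPM in EV libraries and 46.6, 53.7 and 52.2 CPM in OE libraries. It was at 21.6, 23 and 24.1 CPM in shScr, 19.1, 20 and 22.7 CPM in KD4, and 18.4, 16 and 12 CPM in KD6. The log2 difference was -1.43 ± 0.12 (SE, adjusted p = 9.72e-07). Trp53inp1, which takes part in cell death and autophagy, was between 140 and 203 CPM (median 166) in vector libraries and between 44.7 and 92.2 CPM (median 80.1) in hairpin libraries. It was lowest in KD4, at 50.9 CPM.

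Cdkn1a, the p21 inhibitor of cyclin-dependent kinases, was between 199 and 251 CPM (median 221) in vector libraries and between 92.6 and 164 CPM (median 115) in hairpin libraries (log2 difference -0.89 ± 0.12, adjusted p = 0.000198). Mdm2, the ubiquitin ligase that p53 itself raises and that removes p53, was between 300 and 346 CPM (median 327) and between 173 and 237 CPM (median 208). For both genes no hairpin library reached a vector library. The death receptor gene Fas (-0.95 ± 0.17), cyclin G1 gene Ccng1 (-0.61 ± 0.07) and Bax (-0.31 ± 0.07) were lower as well. Pmaip1, which encodes the BH3 protein NOXA, had a log2 difference of -1.31 ± 0.37, but its hairpin libraries ran from 0.0235 to 4.70 CPM and overlapped the vector libraries at 2.73 to 6.11 CPM. In the gene tables its difference was -0.44. Bbc3, which encodes the BH3 protein PUMA, was not called and had a difference of 0.25 ± 0.11.

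**Figure D2:**
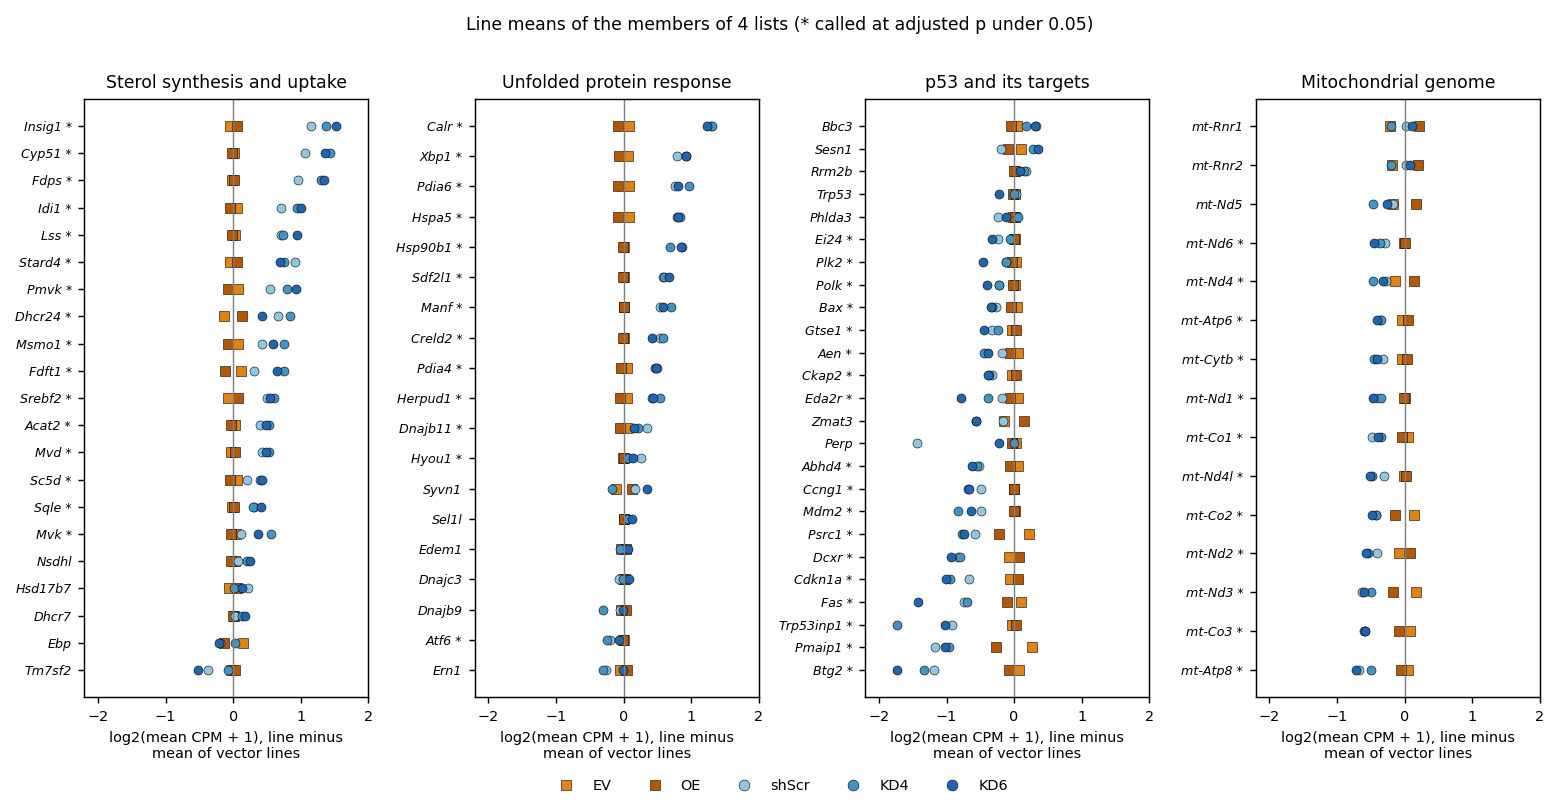
Line means of the listed members of 4 gene lists, apart from those not reported here, as log2(mean CPM + 1) relative to the mean of the 2 vector lines (horizontal axes, log2); squares are vector lines, circles hairpin lines, and an asterisk marks called genes. The list medians over libraries were 0.54 for cholesterol synthesis, 0.47 for the unfolded protein response, -0.45 for p53 targets and -0.41 for mitochondrially encoded genes.

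RNA encoded by the mitochondrial genome was lower in the hairpin lines. It made up 5.93% to 6.93% of the CPM sum in vector libraries and 4.66% to 5.90% in hairpin libraries, which did not overlap. Of 15 listed genes 12 were lower and none higher, with a median log2 difference of -0.41 and with 3 called over line means. Without the EV line 7 were called (46.7%, against 1.35% of all genes lower) and without the OE line 8 (53.3%, against 3.93%). The gene mt-Co3, a subunit of cytochrome oxidase, was between 3000 and 3840 CPM in vector libraries and between 1640 and 2700 CPM in hairpin libraries (log2 difference -0.60 ± 0.09, adjusted p = 0.00037). The ribosomal RNAs mt-Rnr1 (-0.03 ± 0.14) and mt-Rnr2 (-0.05 ± 0.12) were not called. Reads of these genes can be shared with nuclear copies of mitochondrial DNA, and fewer mitochondrial genomes and less RNA per genome cannot be told apart here.

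Nuclear genes of the respiratory chain moved less. Of 76 listed genes 21 (27.6%, against 8.52% of all genes) were lower and none higher, with a median of -0.16, and none was called over line means. The count was 12 without EV replicate 1 (15.8%, against 5.68% of all genes) and 11 without EV replicate 3 (14.5%, against 5.21%). It was 0 without the EV line, when 1.35% of all genes were lower. Uqcr10 and Uqcrq, small subunits of complex III, had differences of -0.65 ± 0.14 and -0.53 ± 0.11. EV replicate 1 was the highest library for both, at 98.2 and 60.7 CPM, while the other vector libraries were between 53.9 and 68.3 CPM and between 39.6 and 44.5 CPM. Cytosolic ribosomal protein genes were lower in 11 of 78 cases, a share of 14.1% against 8.52% of all genes, with a median of -0.09. Only 3 were lower without EV replicate 1 (3.8%, against 5.68% of all genes) and 3 without EV replicate 3 (3.8%, against 5.21%). Ribosomal proteins have many processed pseudogenes with which reads can be shared, so their values are uncertain. Of 38 translation factor genes 5 were lower and none higher, with log2 differences between -0.23 and -0.19, a share of 13.2% against 8.52% of all genes. The count was 2 without EV replicate 1 (5.3%, against 5.68% of all genes) and 1 without EV replicate 3 (2.6%, against 5.21%). Of 35 genes of ribosome biogenesis 6 (17.1%, against 8.52% of all genes) were lower, among them Nop10 (-0.56 ± 0.11) and Nhp2 (-0.42 ± 0.07), which both belong to H/ACA ribonucleoproteins.

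The largest decreases were found in genes of several functions. Gpnmb, a glycoprotein of lysosomes and melanosomes, had the largest difference of all genes named by rule. The EV libraries held 311, 308 and 437 CPM, and the OE libraries 245, 307 and 445 CPM. It was at 33.7, 22.1 and 24.1 CPM in shScr, 25.7, 33.3 and 18.3 CPM in KD4, and 53.5, 49.8 and 45.4 CPM in KD6. The log2 difference was -3.35 ± 0.22 (SE, adjusted p = 9.82e-08 over libraries and 0.013 over line means), and all 3 listed transcripts were called lower.

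Cp, the copper carrier ceruloplasmin, was between 18.5 and 32.4 CPM (median 27.6) in vector libraries and between 0.822 and 9.31 CPM (median 4.81) in hairpin libraries. Pltp, which transfers phospholipids between lipoproteins, was between 22.3 and 47.9 CPM (median 29.1) and between 2.59 and 12.6 CPM (median 5.63). Car12, a membrane-bound carbonic anhydrase, was between 48.7 and 72.4 CPM (median 56.7) and between 8.41 and 28.5 CPM (median 17.6). The log2 differences of the 3 genes, which were named among genes without overlap, were -2.29 ± 0.29, -2.21 ± 0.29 and -1.68 ± 0.22. Pltp and Car12 were not called over line means (adjusted p = 0.0684 and 0.0702), and the hairpin lines were unequal, with Pltp at 10.7 CPM in shScr and 3.06 CPM in KD6. In the authors' gene tables the lines were closer, with Pltp at 10.3 CPM in shScr, 8.94 CPM in KD4 and 6.79 CPM in KD6. The log2 differences there were -1.68 for Cp, -1.69 for Pltp and -1.59 for Car12.

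Chchd10, a protein of the mitochondrial intermembrane space, was lower in all hairpin lines. It was at 21.8 and 21.7 CPM in EV and OE and at 6.76, 8.12 and 9 CPM in shScr, KD4 and KD6, with a log2 difference of -1.36 ± 0.10. Mt2, a metallothionein that binds zinc and copper, was at 86.2 and 68.2 CPM against 33.6, 34.5 and 33.3 CPM. Both were called over line means (adjusted p = 0.013). Sema4d, a semaphorin, and Lcp1, an actin bundling protein typical of blood cells, were lower in all hairpin lines but by unequal amounts. Sema4d was at 41.5 CPM in vector lines and at 25.2, 8.21 and 13.6 CPM in shScr, KD4 and KD6. Lcp1 was at 102 CPM in vector lines and at 49.3, 23.4 and 63.9 CPM in the same 3 lines, and it was not called without the EV line (adjusted p = 0.101). Arhgap27, Gdpd1, Aldh1l2 and Ldhd completed the 15, with vector means between 9.66 and 21 CPM and log2 differences between -1.60 and -1.24.

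Genes of the lysosome were lower in 11 of 34 cases (32.4%, against 8.52% of all genes) and higher in none, with a median of -0.12. Without the EV line 4 were lower (11.8%, against 1.35% of all genes). Ctsd, the protease cathepsin D, was between 492 and 629 CPM in vector libraries and between 306 and 477 CPM in hairpin libraries (log2 difference -0.59 ± 0.08, adjusted p = 0.000228). Gaa (-0.50), Ctsa (-0.48) and Gusb (-0.47), enzymes that break down glycogen, peptides and glycosaminoglycans, did not overlap either. The core of the motif that marks lysosomal genes, TCACGTGA, which reads the same on both strands, was found in 6 of the 26 listed genes with a promoter window (23.1%) and in 2.38% of tested genes. Of these 6 Ctsd, Ctsa and Gla were called lower, and Mcoln1, Atp6v0d1 and Atp6v1a were not called. Beside these values, Cd68, a lysosomal protein of macrophages, fell by 0.78 on the log2 scale, and the 2 listed immune markers of 16 summed to 58.2 to 80.3 CPM in vector libraries and 37.1 to 59.0 CPM in hairpin libraries. Defining markers of blood cells such as Ptprc and Csf1r were not among the listed genes. All libraries came from cultures of 6DT1 lines, not from tissue, and which of the cultured cells held this RNA was not tested. In bulk RNA fewer cells with an RNA and less of it per cell cannot be told apart.

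The machinery that processes hairpins had few calls. Of 16 listed genes of RNA interference 2 were higher, Ago3 (0.32 ± 0.05), which encodes an Argonaute, and Dgcr8 (0.16 ± 0.05), a partner of Drosha, and none was lower. The share called higher was 12.5%, against 6.64% of all genes, and the median was 0.00. Without EV replicate 1 the list had 1 call (6.2%, against 4.4% of all genes higher) and without the EV line 0. Sensors of double-stranded RNA gave 1 higher and 2 lower of 14 (7.1% and 14.3%, against 6.64% and 8.52% of all genes). Ifih1, which encodes the sensor MDA5, was between 6.12 and 9.49 CPM in vector libraries and between 12.2 and 20.4 CPM in hairpin libraries (log2 difference 0.81 ± 0.13, adjusted p = 0.000588). The adaptor Mavs was lower (-0.32 ± 0.08), and so was Irf7 (-0.44 ± 0.08), a factor of the interferon response, at 1.99 to 2.6 CPM against 1.1 to 1.95 CPM.

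Interferon-stimulated genes were called often but in both directions, with 6 higher and 8 lower of 29 and a median of 0.05. The shares were 20.7% higher and 27.6% lower, against 6.64% and 8.52% of all genes. Without EV replicate 1 the counts were 5 and 4 (17.2% and 13.8%, against 4.4% and 5.68% of all genes). Without EV replicate 3 they were 3 and 4 (10.3% and 13.8%, against 4.15% and 5.21%). Rsad2, which encodes the antiviral viperin, had a difference of 0.86 ± 0.28 with overlapping libraries, and was not called in 17 of 29 alternative fits. Usp18, which removes ISG15 from proteins and damps interferon signalling, had a difference of -0.94 ± 0.17 (-0.58 in the gene tables). The membrane proteins Bst2 (-0.53), Ifitm2 (-0.38) and Ifitm3 (-0.50) were lower, and Ifit1 (0.66), Gbp7 (0.44) and Isg15 (0.34) were higher. The Ifitm genes are close copies among which reads can be split. In antigen presentation by MHC class I, 5 of 17 genes (29.4%, against 6.64% of all genes) were higher and 1 lower (5.9%, against 8.52%). Calr, Canx and Pdia3 among the 5 are, however, chaperones of the endoplasmic reticulum. The proteasome subunit Psmb8 was at 4.03 and 2.85 CPM in EV and OE and at 11.6, 14.4 and 6.65 CPM in shScr, KD4 and KD6, and its libraries overlapped. B2m, the light chain of class I molecules, was lower (-0.27 ± 0.06).

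The integrated stress response, in which a block of translation initiation favours Atf4, gave 9 higher and 4 lower of 31 genes, with a median of 0.08. The shares were 29.0% higher and 12.9% lower, against 6.64% and 8.52% of all genes. Without EV replicate 1 the counts were 10 and 2 (32.3% and 6.5%, against 4.4% and 5.68% of all genes). Without EV replicate 3 they were 6 and 2 (19.4% and 6.5%, against 4.15% and 5.21%). Atf4 was between 186 and 227 CPM in vector libraries and between 230 and 412 CPM in hairpin libraries, and the hairpin lines were unequal, with 357 CPM in KD4, 258 CPM in shScr and 243 CPM in KD6. The related factor genes Ddit3 (0.45 ± 0.08) and Atf5 (0.58 ± 0.14) were higher, while Sesn2 (-0.57 ± 0.10) and Vldlr (-0.65 ± 0.07), also on the list, were lower. Of 10 listed drug efflux transporters 1 was higher, Abcc5 (0.41 ± 0.07), and 2 were lower, Abca2 (-0.41 ± 0.10) and Abcg2 (-0.31 ± 0.08). Of all genes 6.64% were higher and 8.52% lower, and whether these few calls differ from those shares was not tested. Without the EV line none of the 10 was called, in a fit where 1.1% of all genes were higher and 1.35% lower.

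Genes of mitosis were lower in 11 of 30 cases (36.7%, against 8.52% of all genes) and higher in 1, with a median of -0.13. They were lower in 7 without EV replicate 1 and 7 without EV replicate 3. Those 7 were 23.3%, against 5.68% and 5.21% of all genes. Ccnb2, a mitotic cyclin, was between 22.9 and 28.4 CPM in vector libraries and between 13.5 and 21.7 CPM in hairpin libraries, and the kinase gene Plk1 was between 34.8 and 37.4 CPM and between 25.8 and 30.6 CPM. Top2a, the exception, rose by 0.18 ± 0.05. Genes of DNA replication were lower in 7 of 40 cases by 0.35 or less on the log2 scale, a share of 17.5% against 8.52% of all genes. They were lower in 3 without EV replicate 1 (7.5%, against 5.68% of all genes) and in 1 without EV replicate 3 (2.5%, against 5.21%). In the BAF complex 2 of 25 genes were lower, Smarcd1 and Dpf2 (-0.24 ± 0.06), and Pbrm1 was higher (0.13 ± 0.04). The share called was 12%, against 15.2% of all genes, Smarcd1 is the gene that the lines were made to alter, and Pbrm1 was not called in 9 of 29 alternative fits.

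**Figure D3:**
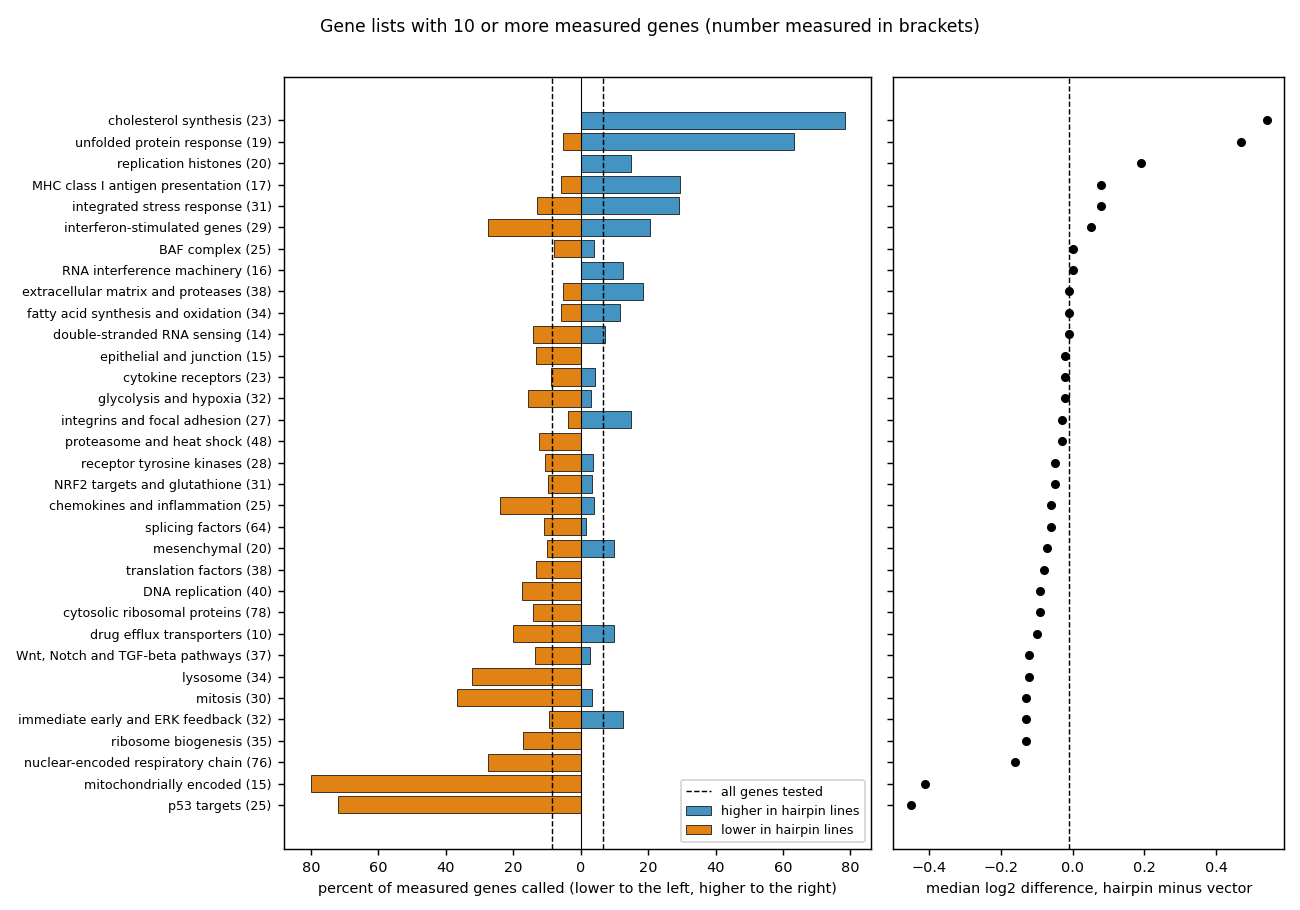
Percent of measured genes called lower (left) or higher (right) in hairpin lines for the 33 lists with at least 10 measured genes, with the share of all genes as dashed lines, and the median log2 difference of each list. Cholesterol synthesis (18 of 23 higher) and the unfolded protein response (12 of 19 higher) stand at the top, and p53 targets (18 of 25 lower) and mitochondrially encoded genes (12 of 15 lower) at the bottom.

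Single transcripts were tested in the same way. Of 30220 transcripts 2499 (8.27%) were called, 1264 higher and 1235 lower in hairpin lines. In 49 genes a transcript was called higher and another lower, and the count was 11 without EV replicate 1 and 15 without EV replicate 3. The 6 such genes with the largest differences were Mrps24, Trmt1, Sumo3, Phtf1, Mocs2 and Psmd13. Of their 12 transcripts EV replicate 1 was the lowest of all libraries for each one called higher and the highest for each one called lower, and 3 of the 12 were called without it.

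In Phtf1, a membrane protein gene, ENSMUST00000117150 was lower without overlap, at 9.45 and 8.31 CPM in EV and OE and 5.13, 5.74 and 5.09 CPM in shScr, KD4 and KD6. ENSMUST00000055425 of the same gene was higher, at 3.03 and 2.75 CPM against 5.2, 5.66 and 6.25 CPM. In Trmt1, a methyltransferase of transfer RNA, ENSMUST00000001974 was at 8.86 and 5.81 CPM against 2.96, 4.23 and 1.74 CPM, and ENSMUST00000125370 was at 0.71 and 1.16 CPM against 1.90, 1.93 and 2.21 CPM. In Mrps24, a protein of the mitochondrial ribosome, ENSMUST00000154330 was higher, at 5.65 and 8.90 CPM against 16.1, 12.1 and 12.9 CPM. These levels were low, and 11 of the 12 transcripts overlapped between the classes.

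**Figure D4:**
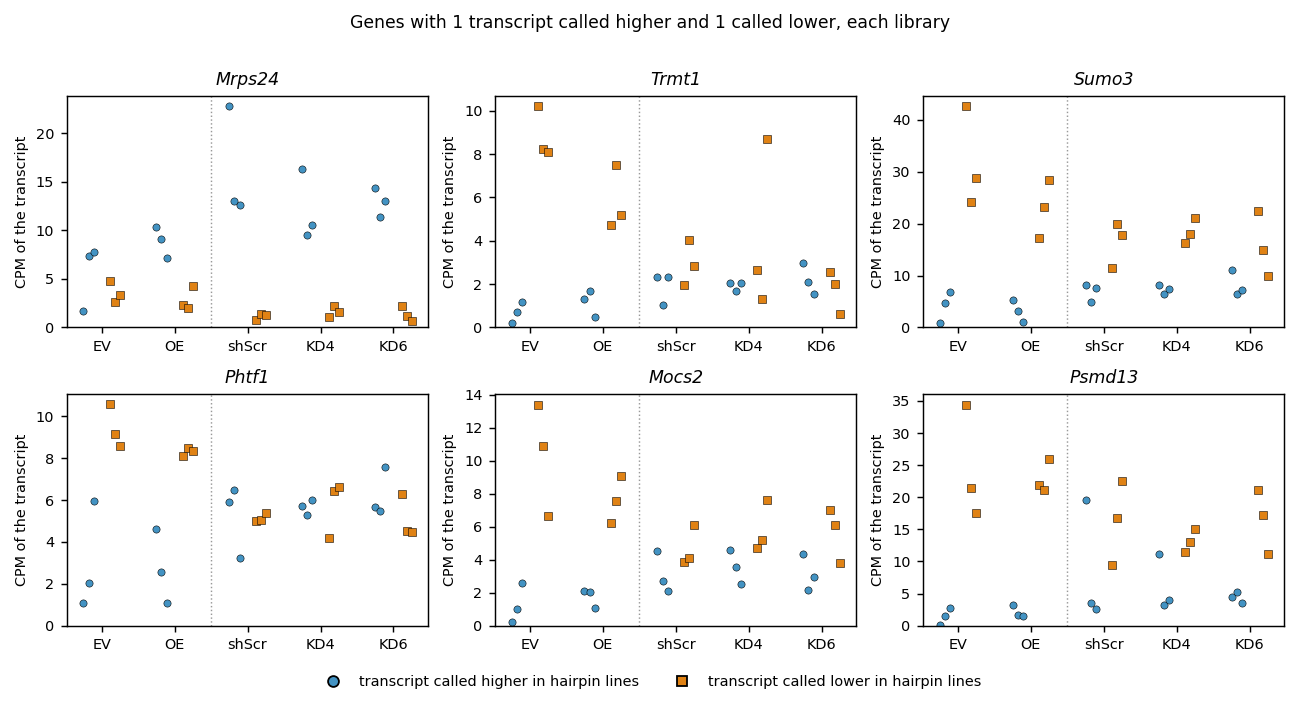
Level in CPM (vertical axes, linear, from 0) of a transcript called higher (circles) and a transcript called lower (squares) of each of 6 genes in the 15 libraries; the dotted line divides vector lines from hairpin lines. In Phtf1 the squares do not overlap between the classes, whereas the other 11 transcripts overlap in at least 1 library, and EV replicate 1 is the extreme library for all 12.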

How the data were processed

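The deposited transcript table held CPM calculated by the authors for 30220 transcripts of 13142 genes in 15 libraries. The values were fractional, so depth is unknown and no counting interval applies. No listed transcript had a geometric mean under 1 CPM over libraries, so genes near 0 in a class can be missing. The labels name STAR 2.7.8a and mm39, whereas the methods name Tophat and mm9; strand handling is not given in the sources used here. A further 15 columns that match no label, and the authors' comparisons, were not used. Symbols were found for 87.6% of genes.

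Sums of CPM per gene were set on the scale log2(CPM + 1), where limma 3.58.1 (R 4.3.3, intensity trend) compared 9 libraries against 6, with Benjamini-Hochberg adjustment over all genes or transcripts. A second fit used 5 line means. Since the values were not counts, DESeq2 was not run. The members and the 39 gene lists were chosen with earlier results of these data known. Named by rule were Smarcd1, the 15 higher and 15 lower called genes with the largest differences, no overlap and at least 5 CPM, up to 4 called members a list, and the transcripts described. Further list members were named after their values were seen. Motifs were searched in RefSeq promoter windows (GRCm38.p6). Some genes that entered the fits and list counts are not reported here by name.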

Additional observations from a re-analysis of the deposited data

Results flagged for a closer look

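Each of the 30 genes with the largest differences, Smarcd1 among them, was examined for a library far from the others of its class (Dixon's criterion at the 95% level, log2 scale), 60 groups in all. Chance alone marks about 5% of such groups, and 3 were marked. For Fads2 KD4 replicate 2 stood at 23.8 CPM, while the other 8 hairpin libraries were between 7.86 and 13.3 CPM. For Golga7b the same library stood at 12.3 CPM, with the others between 6.43 and 8.93 CPM. For Pdia6 EV replicate 1 stood at 174 CPM, with the other 5 vector libraries between 139 and 151 CPM. In each case the library lay on the side away from the other class for hairpin lines, or towards it for the vector line, and the 3 genes were called in every fit that left out a library.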

How the results depend on the processing

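No value of a named gene changed sign under any alternative run, and 28 of the 30 genes with the largest differences, but 73 of all 186 named genes and called members, were called under every alternative run. The 30 were picked as called genes without overlap and with the largest differences, and all 186 were called in the main fit. Keeping a sign or a call thus follows in part from how they were picked. Against 1993 genes, 754 were called with the line as a random block, 322 without the EV line, 890 without the OE line, and 1230 (without EV replicate 3) to 2182 when single libraries were left out. Other alternatives (pseudocount 0.1, quantile or median-of-ratios scaling, a mean of at least 5 CPM, 5 lines fitted, no trend, an adjusted p under 0.1, and no shScr, KD4 or KD6 line) gave 1721 to 2972. Genes past 1.5-fold fell from 238 to 130 without the EV line and were 199 to 271 without single libraries. Calls over line means fell from 104 to 66 without the trend. Transcripts numbered 1277 to 3090, against 2499, without single libraries, and were fewest without EV replicates 3 (1277) and 1 (1327) and OE replicates 3 (1560) and 2 (1613) and EV replicate 2 (1625). Without the EV line 9 (against 18) p53 targets and 7 (against 12) mitochondrial genes were called. These were 36.0% and 46.7% of the lists, in a fit where 1.35% of all genes were lower. Without single libraries the p53 count was 14 to 19 and the mitochondrial count 11 to 12. The sterol count was then 16 to 18 and that of the unfolded protein response 11 to 12. The list counts under alternatives were chosen after seeing the data.

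Replicate numbers did not pair the samples: deviations of same-numbered libraries correlated between -0.44 and 0.162, those of other numbers between -0.297 and 0.407. With a replicate block 1233 genes and 1007 transcripts were called. The authors' gene tables gave the same sign for all 138 named genes they share, and 8 moved by over 0.3 on the log2 scale. The difference was smaller in the gene tables for Cp (-1.68), Pltp (-1.69), Fos (-0.63), Usp18 (-0.58), Ndufb6 (-0.11) and Pmaip1 (-0.44). It was larger for Smarcd1 (-1.73) and Irf7 (-1.06).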

Other observations

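Some lists held calls in few members. Of 25 genes of chemokines and inflammation 6 were lower (24.0%, against 8.52% of all genes) and 1 higher (4.0%, against 6.64%). The lower ones numbered 4 without EV replicate 1 (16.0%, against 5.68% of all genes). Lcn2, the iron-binding lipocalin secreted in inflammation, had a log2 difference of -3.33 ± 0.51, with 17.1 to 59.6 CPM in vector libraries and 0.00834 to 17.4 CPM in hairpin libraries, so that KD6 replicate 3 overlapped. Vcam1, an adhesion molecule, was lower without overlap (-0.46 ± 0.08), as was Cx3cl1, a membrane-bound chemokine (-0.55 ± 0.10). Among immediate early genes Fos was lower (-1.16 ± 0.24), at 6.73 to 21.4 CPM against 1.95 to 7.17 CPM, while Klf6 (0.28 ± 0.05) and Jund (0.36 ± 0.08) were higher. In the gene tables the difference of Fos was -0.63.

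In the NRF2 list, genes of detoxification and glutathione, 1 of 31 was higher and 3 were lower (12.9% called, against 15.2% of all genes), the lower ones being Ephx1 (-0.92 ± 0.16), Gpx1 (-0.62 ± 0.14) and Nfe2l2 (-0.40 ± 0.11), which encodes NRF2 itself. Among receptor tyrosine kinases and their ligands Egfr was lower without overlap, at 22.8 to 29.7 CPM in vector libraries and 15.2 to 21.3 CPM in hairpin libraries. Of the genes of mesenchymal cells Sparc, a matrix protein, was higher, at 316 to 331 CPM against 394 to 453 CPM, while the transcription factor gene Snai1 was lower (-0.40 ± 0.11) with overlap.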
